A study of Mus musculus with 6 samples.

Results

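The 33 genes described here encode enzymes of the mevalonate, cholesterol and fatty acid synthesis routes, the SREBP transcription factors that govern them, and proteins that hold or carry sterols. They were chosen by symbol from a table of 23951 genes that sets Alkbh1 knockout (KO) mouse embryonic stem (ES) cells against wild-type ones. The table had a row for all 33 symbols and a test for 32 of them, out of 14095 genes tested. The Alkbh1 protein belongs to the AlkB dioxygenases, which take methyl groups off DNA and RNA. The KO group held 4 libraries of Alkbh1 KO cells, 2 from each of 2 clones, and the wild-type (WT) group held 2 libraries of TT2 ES cells. Both groups had a mixed C57BL6 and CBA background, were at passage 5 and grew without feeder cells. The labels name no deleted exon of Alkbh1, and they do not say whether libraries of a clone came from separate cultures.

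Levels are FPKM (fragments per kilobase of transcript, scaled to mapped fragments), with 1 pooled value for KO and 1 for WT. No library has a value of its own, so levels carry no SD, clones could not be compared, and the depth is unknown. A spread between libraries could enter only through the authors' q-value, and how the libraries entered it is not stated. The q is therefore not read as a measure of the spread between clones. A gene was called at q under 0.05. With KO libraries from 2 clones, genotype and clone cannot be told apart. In such bulk RNA, fewer cells of a type and less RNA per cell cannot be told apart either.

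Cells build cholesterol from acetyl-CoA, which passes through mevalonate to isoprenoids, then squalene, lanosterol and cholesterol. The same acetyl-CoA is carboxylated to malonyl-CoA and built into palmitate, which elongases and desaturases turn into longer and unsaturated chains. SREBP2 mainly drives the sterol genes and SREBP1 mainly the fatty acid genes. When membrane sterol is low, SCAP escorts the SREBPs out of the endoplasmic reticulum for cleavage, and INSIG proteins hold the complex back when sterol is ample.

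The genes of sterol synthesis and those of fatty acid synthesis differed in direction as deposited. Among the 32 tested genes, 9 were called higher and 6 lower in KO. That is 46.9% called, where 50.8% of all tested genes were called, with 22.4% higher and 28.4% lower, so the share called was near that of the whole table. Of the 15 tested mevalonate and sterol enzymes, 6 were lower (Acat2, Idi1, Fdps, Sqle, Cyp51 and Ebp) and 1 higher (Tm7sf2). Of the 17 genes of SREBP control, fatty acid synthesis, elongation and desaturation, 8 were higher (Srebf1, Srebf2, Stard4, Acss2, Acaca, Fasn, Elovl6 and Fads2) and none lower in the authors' deposited table. The difference between the sterol and fatty acid genes was not tested.

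These directions depend on how KO and WT are scaled to each other. Over all tested genes, FPKM came to 624340 in KO and 981679 in WT in total. With totals set equal, every log2 fold change stands 0.65 higher. The 15 genes called as deposited then divide into 13 above 0 and 2 below 0 (Acat2 at -0.14 and Idi1 at -0.009, next to 0). Of all tested genes, 34.0% were called as deposited and then lie above 0, and 16.8% below. All 7163 calls of the table then divide into 4788 above and 2375 below 0, in place of 3163 and 4000. The q belongs to the deposited scaling and was not computed for equal totals. These counts therefore give the side of 0 and no call at that scaling. The order of the genes does not move with the scaling. Across the 32 genes the deposited median log2 fold change was 0.14, against -0.06 over all tested genes, and differences ranged from -0.79 (Acat2) to 0.88 (Acss2). At a q under 0.01, 5 of the 32 genes were higher and 5 lower, where 39.9% of all tested genes were called, 17.2% higher and 22.6% lower. No gene of the set reached a 2-fold difference, which 14.4% of all tested genes did with a q under 0.05 (9.04% higher and 5.36% lower).

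**Figure D1:**
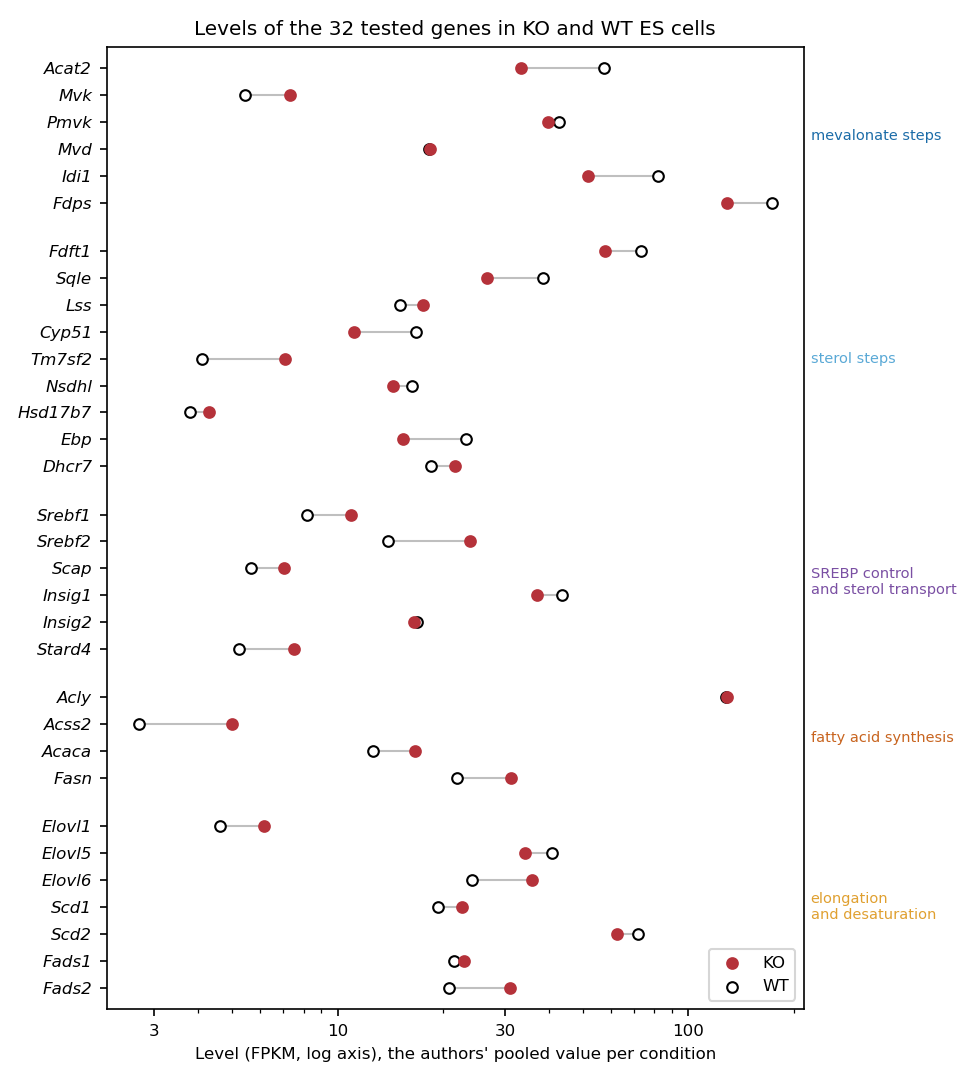
Levels of the 32 tested genes (FPKM, log axis) in KO (red) and WT (open), grouped by role, each point the authors' pooled value of a condition. As deposited, Acat2, Idi1, Fdps, Sqle, Cyp51 and Ebp lie lower in KO, while Srebf2, Acss2, Fasn, Elovl6 and Fads2 lie higher. With equal totals only Acat2 (-0.14) and Idi1 (-0.009, next to 0) of the lower calls stay below 0.

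Of the 6 tested genes of the mevalonate steps, 3 were lower, none was higher and 3 were not called, with a median log2 fold change of -0.27 as deposited that turned to 0.38 with equal totals. That is 50% called, near the 50.8% of all tested genes. With all tested genes split into deciles by mean level, Acat2 and Idi1 lie in the ninth and Fdps in the highest. Of all tested genes there, 59.5% and 76.6% were called lower. Acat2, a cytosolic thiolase that joins acetyl-CoA units at the start of the route, had 33.3 FPKM in KO and 57.7 FPKM in WT in the authors' deposited table (chromosome 17, 13135907 to 13153591, mm9). This was the largest fall in the set, to 57.8% of WT (log2 fold change -0.79, deposited q = 0.000206, the smallest q that the table holds). Idi1, the isomerase that makes dimethylallyl diphosphate, fell to 51.9 FPKM in KO, against 82.1 FPKM in WT in the authors' deposited table (-0.66, q = 0.000206). With equal totals Idi1 stands at -0.009, next to 0. Fdps, which makes farnesyl diphosphate, was the most abundant WT transcript of the set. It fell to 129 FPKM in KO, against 173 FPKM in WT in the authors' deposited table (-0.43, q = 0.0127), and with equal totals it stands at 0.22.

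The enzymes between these steps were not called. Mevalonate kinase (Mvk) had 7.34 FPKM in KO and 5.45 FPKM in WT and lay just outside the threshold in the authors' deposited table (0.43, q = 0.0502). The next kinase, Pmvk, had 39.7 FPKM in KO and 42.9 FPKM in WT in the authors' deposited table. The decarboxylase Mvd was at 18.4 FPKM in KO and 18.2 FPKM in WT in the authors' deposited table. So within this short route Acat2 at its start and Idi1 and Fdps at its end were lower as deposited, and the 3 in the middle were not called.

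Hmgcs1, the HMG-CoA synthase of the route, has no measured value. The table places its row on unplaced sequence of chromosome 13 (13_random in mm9, 308436 to 326346) and lists it at 0 in KO and in WT, untested. Of 90 rows on such unplaced sequence, 79 were listed at 0 in both groups, as were all 5 on the chromosome 13 part. The 0 is therefore not read as a level of Hmgcs1.

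Of 9 tested enzymes from squalene to cholesterol, 3 were lower, 1 was higher and 5 were not called, with a median of -0.18 as deposited that turned to 0.47 with equal totals. That is 44.4% called, near the 50.8% of all tested genes (28.4% lower and 22.4% higher). The 3 lower genes lie in the seventh and eighth deciles by level, where 31.3% and 44.9% of all tested genes were called lower. Sqle, the squalene epoxidase that makes the first oxygenated intermediate, had 26.8 FPKM in KO and 38.5 FPKM in WT in the authors' deposited table (-0.53, q = 0.0031). Cyp51, the lanosterol demethylase, had 11.1 FPKM in KO and 16.7 FPKM in WT in the authors' deposited table (-0.59, q = 0.00163, chromosome 5, 4080673 to 4104697, mm9). Ebp, the isomerase that moves a ring double bond, lies on the X chromosome and had 15.4 FPKM in KO and 23.3 FPKM in WT in the authors' deposited table (-0.60, q = 0.000881). Ebp moved furthest in rank among the 32 genes, to position 22 by level in KO, against 12 in WT. These 3 falls were modest, to between 66.1% (Ebp) and 69.5% (Sqle) of WT, and with equal totals each lies slightly above 0, from 0.06 to 0.13.

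Tm7sf2, a reductase that removes a ring double bond of the sterol, went the other way. It had 7.07 FPKM in KO and 4.12 FPKM in WT in the authors' deposited table (0.78, q = 0.037). Its row covers the same joined region as Vps51, at 5.31 FPKM in KO and 6.34 FPKM in WT and not called (q = 0.337), so reads between these neighbours may be split uncertainly. Fdft1, the squalene synthase at the branch point to sterols, had 58.0 FPKM in KO and 73.5 FPKM in WT in the authors' deposited table and was not called (-0.34, q = 0.111). Its region is shared with Ctsb, a lysosomal protease gene at 21.2 FPKM in KO and 19.7 FPKM in WT.

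The remaining sterol enzymes were not called. The lanosterol synthase Lss stood at 17.5 FPKM in KO and 15.1 FPKM in WT in the authors' deposited table. The X-linked decarboxylating dehydrogenase Nsdhl stood at 14.4 FPKM in KO and 16.3 FPKM in WT, and its partner in demethylation Hsd17b7 at 4.29 FPKM in KO and 3.78 FPKM in WT. Dhcr7, which makes cholesterol from its direct precursor, stood at 21.7 FPKM in KO and 18.4 FPKM in WT in the authors' deposited table. Their log2 differences ran from -0.18 to 0.24 and their q from 0.218 to 0.401.

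Of the 6 tested genes of SREBP control and sterol transport, 3 rose and 3 were not called, with a median of 0.36. That is 50% called, all higher, where 22.4% of all tested genes were called higher. Srebf2, which encodes SREBP2, had 23.8 FPKM in KO and 13.97 FPKM in WT in the authors' deposited table (chromosome 15, 81977698 to 82035390, mm9). The increase was 1.70-fold (0.77, q = 0.000206) and moved Srebf2 to position 14 by level in KO, against 23 in WT. Srebf1, which encodes SREBP1, had 10.9 FPKM in KO and 8.18 FPKM in WT, and lay just inside the threshold in the authors' deposited table (0.42, q = 0.0461). Srebf2 thus exceeded Srebf1 in level per length 2.18-fold in KO and 1.71-fold in WT. The Srebf1 row shares its joined region with Rai1, a nuclear regulator gene at 1.78 FPKM in KO and 1.08 FPKM in WT (q = 0.0948). Also in that region are Mir6921, at 109 FPKM in KO and 39.9 FPKM in WT (q = 0.624), and Mir6922, at 49.7 FPKM in KO and 0 in WT and not tested. The Srebf2 row shares its region with the intronic microRNA gene Mir33, which was listed at 0 in both groups.

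The proteins that act on the SREBPs were not called. Scap, the sterol-sensing escort, had 7.05 FPKM in KO and 5.67 FPKM in WT in the authors' deposited table (0.31, q = 0.121). Insig1, itself a classic SREBP target, had 37.1 FPKM in KO and 43.6 FPKM in WT in the authors' deposited table (-0.23, q = 0.207). Its homologue Insig2 stood at 16.5 FPKM in KO and 16.8 FPKM in WT (-0.02, q = 0.920). Stard4, a soluble carrier that moves cholesterol between membranes, rose to 7.53 FPKM in KO, against 5.25 FPKM in WT in the authors' deposited table (0.52, q = 0.0104).

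**Figure D2:**
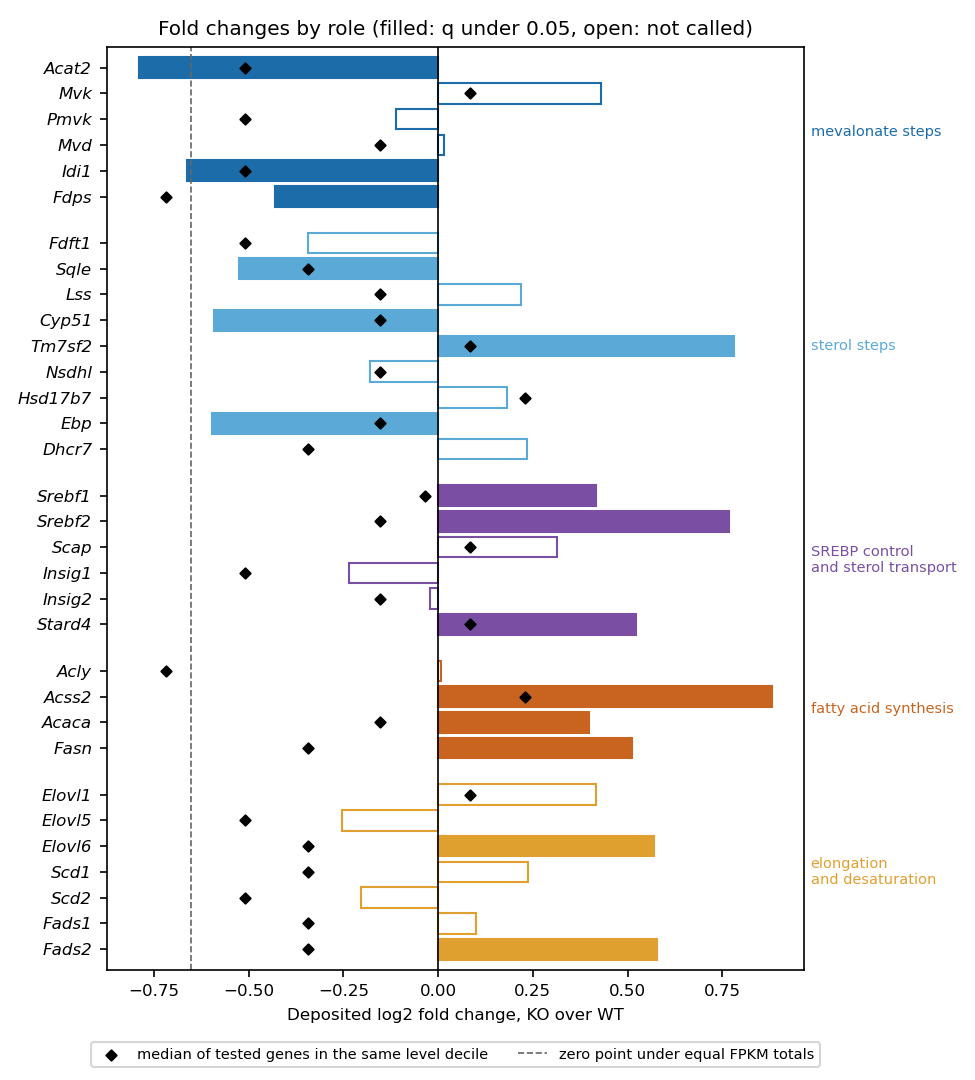
Deposited log2 fold change of KO over WT for each tested gene, by role. Filled bars passed q under 0.05, diamonds give the median over tested genes of a like level (the same decile), and the dashed line is the zero point if FPKM totals were equal. All 17 bars of the 3 lower groups reach further right than their diamond, as do 8 of the 15 in the upper 2 groups. Only the Acat2 and Idi1 bars end left of the dashed line, Idi1 barely (-0.009 with equal totals).

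Of the 4 tested genes of fatty acid synthesis, 3 rose and 1 was not called, with a median of 0.45. That is 75% called, all higher, where 22.4% of all tested genes were called higher. Acss2, which makes acetyl-CoA from acetate, showed the largest increase of the set, with 4.99 FPKM in KO and 2.71 FPKM in WT in the authors' deposited table (1.84-fold, 0.88, q = 0.000206). It was also the least abundant WT transcript of the 32, and it shares its region with Acss2os, which was at 0.899 FPKM in KO and 0.182 FPKM in WT. Acly, which makes acetyl-CoA from citrate, was more abundant and not called, at 129 FPKM in KO and 128 FPKM in WT in the authors' deposited table (0.01, q = 0.967). The ratio of Acly to Acss2 in level per length was 25.8 in KO and 47.2 in WT.

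The carboxylase and the synthase that use this acetyl-CoA both rose. Acaca, the acetyl-CoA carboxylase of the rate-limiting step, had 16.6 FPKM in KO and 12.6 FPKM in WT in the authors' deposited table (0.40, q = 0.0207). Fasn, the fatty acid synthase, had 31.1 FPKM in KO and 21.8 FPKM in WT in the authors' deposited table (1.43-fold, 0.51, q = 0.00323, chromosome 11, 120667271 to 120685861, mm9). These are also the longest transcripts of the set, at 9513 and 10050 bases, and the table's fold changes run with length, as described further on.

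Of the 7 tested genes of elongation and desaturation, 2 rose, none fell and 5 were not called, with a median of 0.24. That is 28.6% called, all higher, near the 22.4% of all tested genes called higher. Elovl6, which extends palmitate to stearate, had 35.8 FPKM in KO and 24.2 FPKM in WT in the authors' deposited table (0.57, q = 0.00039). Fads2, the delta-6 desaturase that opens the polyunsaturated route, had 31.1 FPKM in KO and 20.8 FPKM in WT in the authors' deposited table (0.58, q = 0.00205). Its neighbour on chromosome 19, the delta-5 desaturase gene Fads1, stood at 23.0 FPKM in KO and 21.4 FPKM in WT and was not called (0.10, q = 0.615).

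The stearoyl-CoA desaturases, which make monounsaturated chains, were not called. Scd2 had 62.5 FPKM in KO and 72.0 FPKM in WT in the authors' deposited table (-0.20, q = 0.255). Scd1 had 22.7 FPKM in KO and 19.3 FPKM in WT in the authors' deposited table (0.24, q = 0.199). Scd2 remained the more abundant of the pair, 2.75-fold in KO and 3.73-fold in WT. Elovl5, which extends polyunsaturated chains, had 34.3 FPKM in KO and 40.8 FPKM in WT in the authors' deposited table (-0.25, q = 0.165), so its order against Elovl6 turned, with Elovl6 the more abundant in KO and Elovl5 in WT. Elovl1, which makes very long saturated chains, had 6.17 FPKM in KO and 4.63 FPKM in WT and was not called (0.42, q = 0.681). Its region is shared with the much more abundant mitotic gene Cdc20, at 89.9 FPKM in KO and 140 FPKM in WT in the authors' deposited table.

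Summed over role groups, levels followed the same division. The 15 mevalonate and sterol enzymes summed to 455 FPKM in KO and 589 FPKM in WT, which is 77.3% of WT. The 11 fatty acid genes summed to 397 FPKM in KO and 368 FPKM in WT, or 108% of WT. All tested genes of the table summed to 63.6% of WT on the same scale. These sums are dominated by Fdps and Acly and carry no error.

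Fold changes in this table fall with expression level, and the set has to be read against that. The median log2 fold change over all tested genes was 0.08 in the fifth decile by level (4.62 to 7.57 FPKM), -0.15 in the seventh, -0.34 in the eighth and -0.72 in the highest. In the seventh and eighth deciles, which held 15 of the 32 genes, 5 of these were called higher and 3 lower. Over all tested genes, 12.4% of the seventh and 7.8% of the eighth decile were called higher, while 31.3% and 44.9% were called lower. The ninth decile held 7 of the 32 genes, with 2 called lower and none higher. Of all tested genes in that decile, 59.5% were called lower and 3.69% higher. With the median of its own decile subtracted, the set's median stood at 0.34. All 17 genes of SREBP control, fatty acid synthesis, elongation and desaturation lay above the median of their decile, as did 8 of the 15 mevalonate and sterol enzymes. Of the 6 lower calls, Fdps lay above its decile's median (by 0.29), and the other 5 below, led by Ebp and Cyp51 (-0.44 each). Level and fold change share the KO value, so no test was put on this relation.

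**Figure D3:**
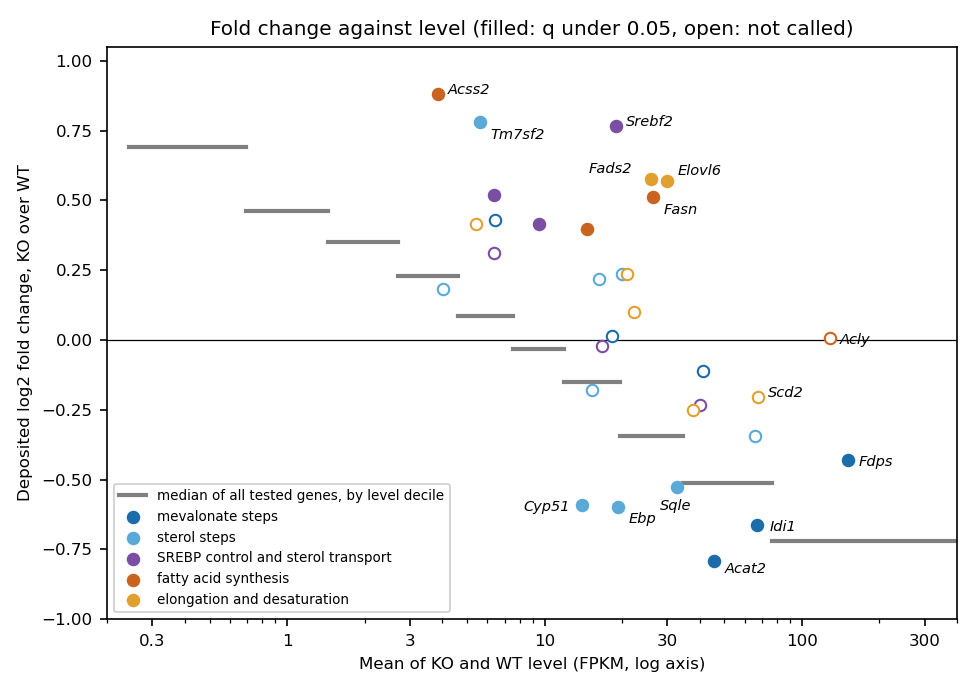
Deposited log2 fold change against the mean of the KO and WT level (FPKM, log axis) for the 32 tested genes, coloured by role, filled where q was under 0.05. Grey bars give the median of all tested genes in each decile by level and fall from 0.69 to -0.72, the last running past the end of the axis. Fasn, Elovl6, Fads2 and Srebf2 stand well above the bar of their decile, while Ebp and Cyp51 stand below theirs.

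Transcript length also ran with the fold change. The 9 genes called higher had a median length of 5077 bases and the 6 called lower one of 2990 bases, by the longest annotated transcript, where all tested genes had 3151. With the median of the same decile by length subtracted, the set's median stayed at 0.14, and that of the 4 fatty acid synthesis genes was 0.02. Of these 4, Acly came to -0.06, Acaca to -0.04, Fasn to 0.08 and Acss2 to 0.97. Of the 17 genes outside the sterol enzymes, 12 lay above the median of their length decile. The part of length in these differences was not tested.

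Promoter sequences were examined for the letters that SREBPs and their partner NF-Y are known to bind. RefSeq windows on GRCm38.p6, from 250 bases before to 50 after an annotated start, were at hand for 26 of the 33 genes, 20 of them with 1 window. Fads1, Fdft1, Fdps, Scd1, Scd2, Sqle and Stard4 had no window and were not searched. The sterol regulatory element was searched as TCACNCCAC, the NF-Y box as CCAAT and the E-box, which SREBP1 can also bind, as CACGTG, each on both strands and with none of these motifs containing another. At least 1 CCAAT was found for 21 of the 26 genes (80.8%), where 41.1% of all genes and 42.9% of tested genes with a window held one. The 5 without were Acaca, Acat2, Elovl6, Fads2 and Scap. CCAAT was present for 5 of the 8 genes called higher, 3 of the 4 called lower and 12 of the 13 not called. Mvk held 5 of them, Nsdhl and Hmgcs1 4 each. An E-box was found for 5 of the 26 genes (19.2%), namely Dhcr7, Elovl5, Hsd17b7, Insig1 and Scap, none of them called. Of all genes 8.09% held one, and of tested genes 11.7%. The element TCACNCCAC was found for Hmgcs1 alone, where 1.44% of all genes and 1.47% of tested genes held it. A match describes these letters and does not show a binding site. Only exact letters within these windows were searched, so a missing match does not show that an element is absent.

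The 250 bases before the start are shown for 2 genes that were lower as deposited, Cyp51 and Idi1, and for 2 that were higher, Srebf2 and Fasn, to set side by side promoters whose transcripts went opposite ways. Each runs 5′ to 3′ on the gene's strand, with CCAAT or its reverse complement ATTGG in capitals. They lie at chr5:4104698-4104947 (minus strand, Cyp51), chr13:8885356-8885605 (plus strand, Idi1), chr15:82147019-82147268 (plus strand, Srebf2) and chr11:120824548-120824797 (minus strand, Fasn) of GRCm38.p6.
Cyp51: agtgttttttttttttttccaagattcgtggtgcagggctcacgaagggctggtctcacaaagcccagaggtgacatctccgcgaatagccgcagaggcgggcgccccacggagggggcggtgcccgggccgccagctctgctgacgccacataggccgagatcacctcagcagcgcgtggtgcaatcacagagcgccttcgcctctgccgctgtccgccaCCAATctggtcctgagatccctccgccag
Idi1: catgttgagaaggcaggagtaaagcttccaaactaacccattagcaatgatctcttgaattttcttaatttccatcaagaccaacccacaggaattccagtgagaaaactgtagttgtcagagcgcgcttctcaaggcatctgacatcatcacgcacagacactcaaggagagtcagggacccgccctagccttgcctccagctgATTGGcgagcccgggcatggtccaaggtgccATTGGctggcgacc
Srebf2: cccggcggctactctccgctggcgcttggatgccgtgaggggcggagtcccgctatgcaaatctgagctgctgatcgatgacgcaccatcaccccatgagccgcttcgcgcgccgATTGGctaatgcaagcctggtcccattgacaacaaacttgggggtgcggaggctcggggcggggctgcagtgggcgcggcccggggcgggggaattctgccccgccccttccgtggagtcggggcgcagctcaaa
Fasn: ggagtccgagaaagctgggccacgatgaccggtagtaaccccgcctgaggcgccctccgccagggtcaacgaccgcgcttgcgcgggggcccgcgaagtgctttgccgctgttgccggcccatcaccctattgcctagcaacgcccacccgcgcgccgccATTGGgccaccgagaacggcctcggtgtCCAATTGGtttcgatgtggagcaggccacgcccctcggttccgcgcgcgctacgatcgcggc

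Cyp51 and Srebf2 hold 1 box each before the start, Idi1 2 and Fasn 3, of which 2 overlap on opposite strands. The box lies 29 bases before the start in Cyp51 and 135 in Srebf2, and the Idi1 boxes begin at 45 and 14. Among the 8 higher and 4 lower genes with a window, neither the presence nor the number of boxes separated higher from lower. Fdps, Sqle and Stard4, which were also called, had no window. With so few genes a separation could have been missed.

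**Figure D4:**
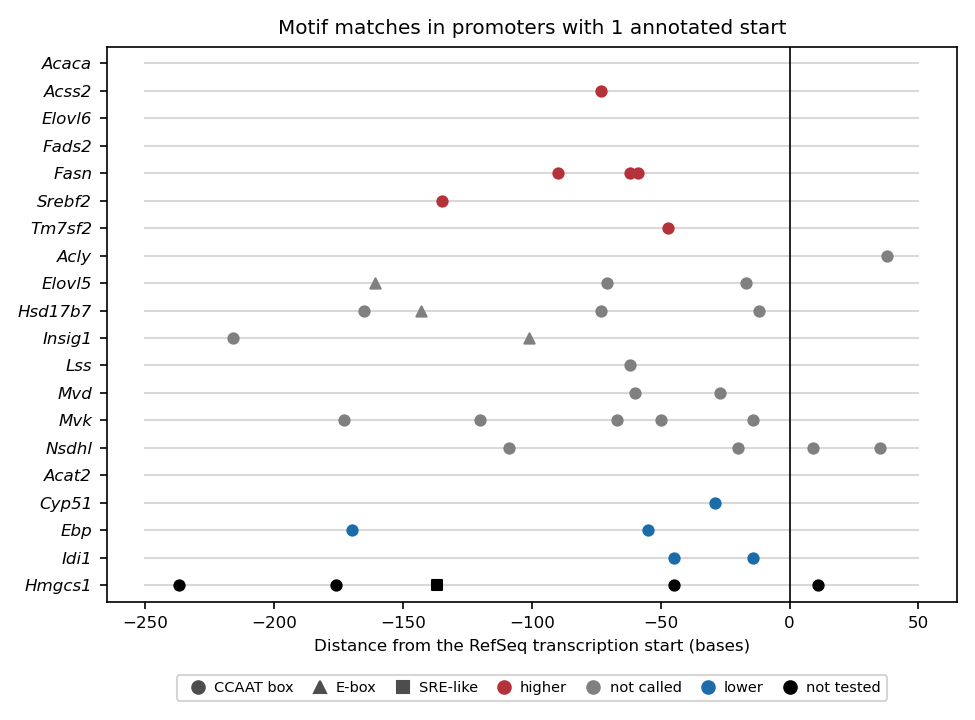
Positions of CCAAT boxes (circles), E-boxes (triangles) and the element TCACNCCAC (square) against the annotated start, in bases, for the 20 genes with 1 promoter window. Colours give the deposited call, with genes called higher at the top and those called lower near the bottom, and boxes occur in both groups. With equal totals, Cyp51 and Ebp of those coloured as lower would lie slightly above 0.

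Other genes of the same routes, from lists that complete the pathways, were read from the same table. Of 2 further sterol enzymes, 1 was lower as deposited and none higher, where 28.4% of all tested genes were called lower. Sc5d, a sterol desaturase, had 10.8 FPKM in KO and 16.3 FPKM in WT in the authors' deposited table (-0.59, q = 0.00231), and with equal totals it stands at 0.06. Msmo1, a methyl oxidase of the route, had 55.5 FPKM in KO and 63.9 FPKM in WT in the authors' deposited table and was not called (-0.20, q = 0.273).

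The genes that cleave SREBPs or serve protein turnover at the endoplasmic reticulum were mixed. Of 9 tested, 2 were higher and 3 lower as deposited, with a median of -0.03. The share called was 55.6%, near the 50.8% of all tested genes. The protease gene Mbtps1, which makes the first cut of an SREBP, had 58.1 FPKM in KO and 45.9 FPKM in WT in the authors' deposited table (0.34, q = 0.0487). Mbtps2, which makes the second, had 6.44 FPKM in KO and 9.32 FPKM in WT in the authors' deposited table (-0.53, q = 0.0162). Also lower were Aup1 and the ubiquitin ligase gene Rnf139, at -0.56 and -0.54, and Erlin2 was higher at 0.43. With equal totals Mbtps2, Aup1 and Rnf139 stand at 0.12, 0.10 and 0.11.

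Among genes of sterol uptake, esterification and efflux, 5 of 14 tested rose and none fell, with a median of 0.32. The share called higher was 35.7%, where 22.4% of all tested genes were. Of genes in the fourth decile by level, which holds the list's median level of 3.50 FPKM, 33.3% were called higher, so the list's share was near that of genes of a like level. Scarb1, a receptor for high-density lipoprotein, had 20.2 FPKM in KO and 10.1 FPKM in WT in the authors' deposited table (2.01-fold, q = 0.000206). Mylip, a ubiquitin ligase that limits lipoprotein uptake, had 4.43 FPKM in KO and 2.24 FPKM in WT in the authors' deposited table (0.98, q = 0.000206). The cholesterol exporter gene Abca1 was scarce at 0.762 FPKM in KO and 0.456 FPKM in WT in the authors' deposited table (0.74, q = 0.00119). The lysosomal genes Npc1 and Lipa, which release cholesterol from endocytosed lipoprotein, also rose, by 0.55 and 0.50. After centring on the median of equally long transcripts the list's median was 0.12.

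The branch that turns farnesyl diphosphate into prenyl groups, ubiquinone and dolichol held mostly lower calls as deposited. Of 12 tested genes, 7 were lower and 1 higher (Icmt), with a median of -0.44 that lay 0.40 below level-decile medians and turned to 0.21 with equal totals. The share called was 66.7%, where 50.8% of all tested genes were called, with 28.4% lower and 22.4% higher. Fnta, a subunit shared by enzymes that attach farnesyl or geranylgeranyl groups to proteins, had 72.6 FPKM in KO and 178 FPKM in WT in the authors' deposited table (-1.29, q = 0.000206), and stayed below 0 with equal totals. Ggps1, which makes geranylgeranyl diphosphate, had 14.0 FPKM in KO and 25.8 FPKM in WT in the authors' deposited table (-0.88, q = 0.000206). Rce1, a protease for prenylated proteins, had 11.2 FPKM in KO and 20.2 FPKM in WT in the authors' deposited table (-0.85, q = 0.000206). With equal totals, 5 of the 7 remained below 0 (Fnta, Ggps1, Rce1, Nus1 and Pdss1), while Pdss2 and Fntb lay above. Of all tested genes, 16.8% were called as deposited and lay below 0 with equal totals.

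The wider fatty acid list divided evenly. Of 23 tested genes, 9 were higher and 8 lower as deposited, with a median of 0.001. The share called was 73.9%, against 50.8% of all tested genes (22.4% higher and 28.4% lower). Mlxipl, which encodes the glucose-responsive factor ChREBP, had 2.98 FPKM in KO and 1.25 FPKM in WT in the authors' deposited table (1.25, q = 0.000206). Acsl5, which activates long-chain fatty acids, had 4.14 FPKM in KO and 8.88 FPKM in WT in the authors' deposited table (-1.10, q = 0.000206). Mid1ip1, which promotes acetyl-CoA carboxylase assembly, had 5.24 FPKM in KO and 10.7 FPKM in WT in the authors' deposited table (-1.03, q = 0.000206). The citrate carrier gene Slc25a1, which supplies Acly with substrate, was not called at 37.0 FPKM in KO and 36.9 FPKM in WT (0.001, q = 0.998).

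**Figure D5:**
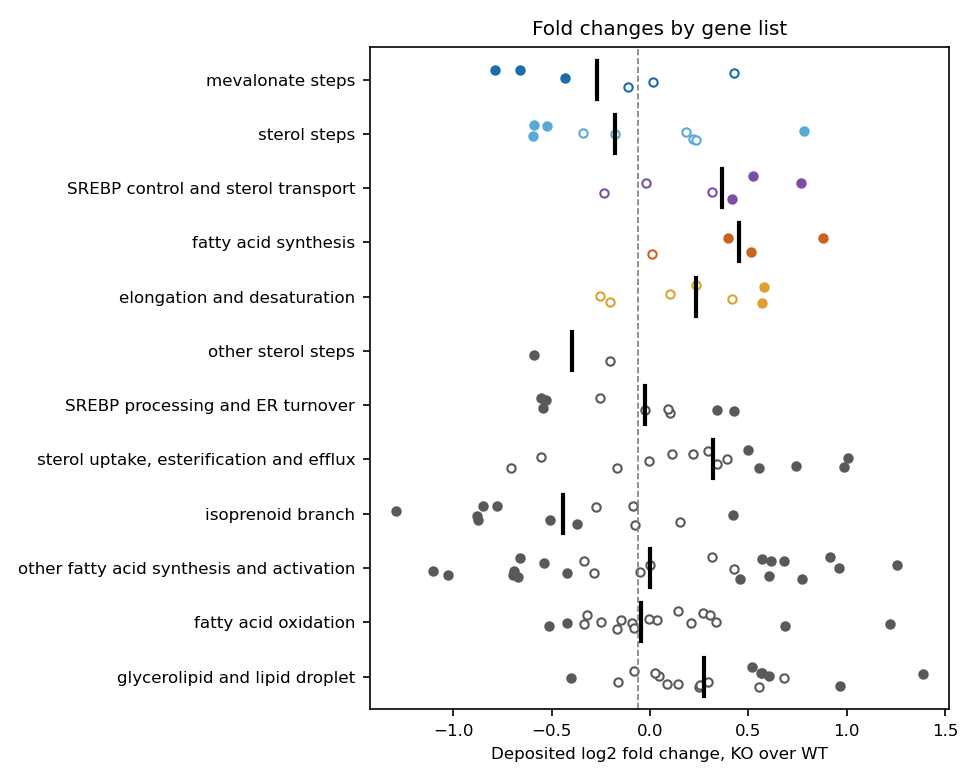
Deposited log2 fold change of KO over WT by gene list, 1 point per tested gene, filled where q was under 0.05. Black bars are list medians and the dashed line is the median of all tested genes (-0.06). As deposited, the mevalonate, sterol and isoprenoid lists have medians below 0, as do SREBP processing (-0.03) and fatty acid oxidation (-0.05). All of these turn above 0 with equal totals. The wider fatty acid list lies at 0.001. The fatty acid synthesis, elongation, control, uptake and glycerolipid lists have medians above 0.

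Markers were read from the same values. The 8 ES cell markers summed to 4473 FPKM in KO and 7233 FPKM in WT, with 5 of the 7 tested called lower as deposited (Pou5f1, Sox2, Dppa5a, Zfp42 and Tdgf1), of which the first 3 stay below 0 with equal totals. Those 5 lie in the highest decile by level, where 76.6% of all tested genes were called lower. Nanog, at 426 FPKM in KO and 481 FPKM in WT in the authors' deposited table, was not tested. Of 9 fibroblast markers, 3 were tested and all 3 rose (Col1a1, Pdgfrb and Thy1), and the list summed to 11.4 FPKM in KO and 7.32 FPKM in WT, with Col3a1, Lum and Postn at 0 in WT and under 0.02 FPKM in KO. Most of that sum was Thy1, at 9.39 FPKM in KO and 6.43 FPKM in WT. Col1a1 and Pdgfrb lie in the lowest decile by level, where 41.3% of all tested genes were called higher. The untested Col1a2 (0.038 FPKM in KO and 0.042 FPKM in WT) and Dcn (0.010 and 0.017) were lower in KO, and the untested Pdgfra (0.392 and 0.191) was higher. The 10 extraembryonic endoderm markers summed to 4.01 FPKM in KO and 4.50 FPKM in WT, with 2 of the 4 tested higher (Gata4 and Hnf4a) and 2 lower (Dab2 and Sox7). Gata4 lies in the lowest decile by level and the other 3 in the second. Of all tested genes there, 41.3% and 40.1% were called higher, and 5.46% and 7.88% lower. The 5 markers of fat or liver cells, cell types with high lipid synthesis, summed to 0.690 FPKM in KO and 0.557 FPKM in WT, none was tested, and Alb and Cyp7a1 were at 0 in WT. The part of other cells in the lipid gene differences was not tested. Alkbh1 itself was at 18.1 FPKM in KO and 33.9 FPKM in WT in the authors' deposited table, which did not pass the threshold (-0.90, q = 0.0943).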

How the data were processed

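Messenger RNA libraries were made with a strand-specific kit from total RNA, per the labels' protocols, and aligned with TopHat2 to mm9, per the submitters' processing notes. Neither the annotation nor a strand setting in counting is given in the sources used here. The deposited table has the layout of a Cuffdiff comparison: FPKM for WT and KO, pooled by the authors, and the authors' log2 fold change, test statistic (a score), p-value and q-value. The smallest deposited p-value is 5e-05 (q-value 0.000206), so genes at it cannot be ranked. The deposited q-value equals a Benjamini-Hochberg adjustment over all 14095 tested genes to within 5.18e-07.

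No test of expression was run anew. Genes were called at q under 0.05 and described by counts and medians; 56 tested genes without a finite fold change are left out of medians. Level classes are deciles of the mean FPKM. Transcript length is that of the longest GENCODE M21 transcript of the symbol, found for 99.3% of tested genes, and only names and lengths were taken from it, since its build differs. Promoters and motif shares use RefSeq windows on GRCm38.p6. Where genes overlap, the table gives a joined region, shared by 9 of the 32 tested genes and, among others named, by Rnf139, Mbtps2, Npc1, Rce1, Pdss1, Icmt and Hadhb. Lss, Scd2 and Fads1 share theirs with 4930483K19Rik, Mir5114 and Mir6993.

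The genes and lists were chosen with earlier results of these data known. The text names all 33 genes, up to 3 called genes with the smallest q per other list (ties by larger fold change), most counts of 5 or fewer by name, and Alkbh1, Pou5f1, Sox2 and Nanog. Msmo1, Slc25a1, Plin2, Mbtps1 and Mbtps2 and the genes with shared regions were added for their role or position after their values were seen. Which 4 promoters to print was also chosen after the values were seen. Some genes of the other lists are not reported here and enter none of their counts, and most of the rest are given only through counts and medians. The adjustment, the centring and the motif search were tested on simulated data. Python 3.11.15, NumPy 2.4.6, pandas 2.3.3, SciPy 1.17.1 and Matplotlib 3.10.9 were used.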

Additional observations from a re-analysis of the deposited data

How the results depend on the processing

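No paired analysis was possible because the table holds 1 pooled value per condition, and for the same reason no replicate could be left out. The 9 higher and 6 lower calls (22.4% and 28.4% over all tested genes) gave 5 higher at q under 0.01, against 17.2% of all tested genes. Without genes of shared regions 5 were higher. With a fold of at least 2 there were 0 in both directions, against 9.04% and 5.36% of all tested genes. With equal totals 2 of the called genes lay below 0, of which Idi1 was next to 0 (-0.009). Of all tested genes, 16.8% were called and lay below 0 there. The set's median of 0.14 became 0.79 with equal totals, 0.34 centred on level deciles and 0.0086 without shared regions. For mevalonate steps the median of -0.27 became 0.38 with equal totals, 0.23 centred on level and -0.061 centred on length, a choice made after seeing the data. For sterol steps -0.18 became 0.47, -0.028 centred on level and -0.35 without shared regions. For SREBP control 0.36 became 1.02 with equal totals and 0.15 without shared regions. For fatty acid synthesis 0.45 became 1.11, 0.69 centred on level and 0.0185 on length. For elongation and desaturation 0.24 became 0.89, 0.44 centred on level and 0.40 without shared regions.

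Over the 96 genes of the other lists, 25 were called higher and 22 lower, where 22.4% and 28.4% of all tested genes were. That is 49% called, near the 50.8% of all tested genes. At q under 0.01, 14 were lower, where 22.6% of all tested genes were. At 2-fold, 4 were higher and 3 lower, where 9.04% and 5.36% of all tested genes were. With equal totals 11 of the called genes lay below 0. Of all tested genes, 16.8% were called and lay below 0 there. The median of the 96 genes, 0.04, became 0.69 with equal totals and -0.0041 without genes of low level. Medians that changed sign were, with equal totals, 0.25 for the other sterol steps, 0.63 for SREBP processing, 0.21 for the isoprenoid branch and 0.61 for oxidation. Centred on level they were 0.004 for SREBP processing and 0.23 for oxidation. SREBP processing came to 0.089 without shared regions, oxidation to 0.15 centred on length, oxidation to 0.048 as a mean, and the wider fatty acid list to -0.17 without genes of low level. Of 45 called genes named from the lipid lists, 13 changed sign with equal totals: Fdps (0.22), Sqle (0.13), Cyp51 (0.063), Ebp (0.056), Sc5d (0.061), Aup1 (0.10), Rnf139 (0.11), Mbtps2 (0.12), Hadhb (0.14), Pdss2 (0.14), Etfa (0.23), Pisd (0.25) and Fntb (0.28). Centred on level, Fdps (0.29) and Etfa (0.30) changed sign, and centred on length Acaca (-0.039) and Mbtps1 (-0.096) did. The recomputed adjustment and a pseudocount of 1 changed no sign. These shifts follow from the subtracted or omitted values, and their cause was not tested.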

Other observations

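Genes that burn and store fatty acids lie beside the synthesis routes. Of 18 tested genes of fatty acid oxidation, 2 rose, 2 were lower as deposited and 14 were not called. The share called was 22.2%, against 50.8% of all tested genes. Cpt1a, which carries out the rate-limiting transfer of fatty acids to carnitine, had 11.3 FPKM in KO and 4.83 FPKM in WT in the authors' deposited table (2.33-fold, log2 fold change 1.22, q = 0.000206). Cpt1c, a relative found mainly in brain, had 9.38 FPKM in KO and 5.84 FPKM in WT in the authors' deposited table (0.68, q = 0.000722). Hadhb and Etfa, which serve the later mitochondrial steps, were lower at -0.52 and -0.42 as deposited and above 0 with equal totals.

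Of 18 tested genes of glycerolipid synthesis and lipid droplets, 6 rose and 1 was lower as deposited (Pisd, above 0 with equal totals), with a median of 0.27. The share called was 38.9%, against 50.8% of all tested genes (22.4% higher and 28.4% lower). In the fifth decile by level, which holds the list's median level of 4.70 FPKM, 25.9% of all tested genes were called higher. Lpin1, a phosphatidate phosphatase, had 4.71 FPKM in KO and 1.80 FPKM in WT in the authors' deposited table (2.62-fold, q = 0.000206). Gpam, which attaches the first acyl chain to glycerol phosphate, had 4.04 FPKM in KO and 2.07 FPKM in WT in the authors' deposited table (1.96-fold, q = 0.000206). Agpat2, which adds the next chain, had 20.5 FPKM in KO and 13.8 FPKM in WT in the authors' deposited table (1.48-fold, q = 0.004). Plin2, a lipid droplet coat gene, was not called at 15.8 FPKM in KO and 14.9 FPKM in WT in the authors' deposited table.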
